A study of Rattus norvegicus with 6 samples.

Results

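The TNF superfamily of the dorsal root ganglion, which houses the cell bodies of sensory neurons, was described here from 48 genes among the 18696 genes with group averages. They were 15 ligands, 23 receptors, 7 TRAF adaptors and 3 TRAF-interacting proteins. Genes were taken by symbol alone: those starting with Tnfsf, Tnfrsf or Traf and a digit, with Tnf, Lta, Ltb, Ltbr, Fas, Faslg, Cd40, Cd70 and Cd27. A RefSeq gene table of rat (GRCr8) lists 50 protein-coding genes that this rule takes, and the other two, Cd40lg and Tnfsf11, were not analysed here. The ganglia came from SD rats. In 3 libraries the rats had the spared nerve injury (SNI): 2 sciatic branches, the tibial and the common peroneal nerve, were ligated and transected, and the sural nerve was left whole. The 3 sham libraries came from rats whose nerve was exposed only. In this model a ganglion holds both cut and uncut neurons, and the libraries mix neurons, glia, vessels and immune cells. The sources used here do not give age, sex, time after surgery, the level and side of the ganglia or any pooling of animals. They also leave unsaid whether each library is its own animal. P-values therefore measure the spread between these libraries, which may be technical.

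Ligands of this family are mostly made as membrane proteins that can be shed, and they bind receptors with cysteine-rich outer domains. Some receptors carry a death domain in the cell and can start caspase activity, while others recruit TRAF proteins and switch on NF-kappa B and JNK signalling. In nerve injury TNF and its receptors are known from immune cells, Schwann cells and sensory neurons, and have been linked to pain and to axon breakdown and regrowth.

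Expression was deposited as TPM, the length-corrected share of a gene in a library. A value for each library was deposited for 1637 genes, of which 3 were members: Tnfrsf14, Tnfrsf12a and Tnfrsf21. For the other 45 there were group averages, which carry no error and no test. The average read counts summed to 18.6 M in either group, and the depth of a single library is unknown. Whether these counts were scaled or subsampled is not known, so a number of reads below is 3 times a deposited average and may not be one of raw reads. Between libraries of a group the correlation over genes of log2(TPM + 1) was at least 0.994, and no library stood apart. Markers of the labelled tissue were present: the sensory neuron gene Tubb3 averaged 4726 TPM in sham and the satellite glia gene Fabp7 109 TPM. No listed marker had an average of 0 in either group. Of 8 macrophage markers, 8 had higher averages in SNI, with a summed level of 107 TPM in sham and 239 TPM in SNI. Only 2 of the 8 had a value per library, and their ratios of averages, 1.03 and 1.15, were the smallest of the 8. Limma called 0 of these 2 at an adjusted p under 0.05, beside 61.2% of the 1596 genes tested. The summed level of these 2 was 13.4 to 13.9 TPM in sham and 14.5 to 15.4 TPM in SNI. Of 6 T cell markers, 6 were higher (8.73 and 15.1 TPM), and of 5 erythrocyte markers, 5 (1003 and 2899 TPM). Of 5 B cell markers 2 were higher (3.71 and 2.89 TPM), of 5 endothelial markers 3 (101 and 97.3 TPM) and of 4 satellite glia markers 4 (441 and 513 TPM). All 4 Schwann cell markers were lower (10540 and 5729 TPM), as were 4 of 5 fibroblast markers (912 and 843 TPM) and 4 of 6 sensory neuron markers (17026 and 15437 TPM). Genes of injured neurons were higher in 6 of 6 (367 and 3152 TPM). Of the markers with a value per library, limma called 2 of 2 T cell and 5 of 5 erythrocyte markers higher. It also called 1 of 3 satellite glia and 2 of 2 injured neuron markers higher. Called lower were 3 of 3 Schwann cell, 2 of 4 fibroblast, 1 of 1 endothelial and 1 of 1 sensory neuron markers. The part of these shifts in the results below was not tested.

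The comparison of SNI with sham asks how this family differed in the ganglion after nerve injury. All 3 receptors with a value per library rose, in a table where limma called 32.0% of 1596 genes tested as higher. Tnfrsf14, the receptor of the ligand Tnfsf14 and a regulator of lymphocytes, was 5.49-fold higher in SNI. Tnfrsf12a, the receptor of Tnfsf12 (TWEAK) and a gene known to be induced in injured tissue, was 2.12-fold higher. Tnfrsf21 (death receptor 6), a death domain receptor of neurons known from axon pruning, was 1.56-fold higher. Among the other 45 members, the averages of the TNF receptors Tnfrsf1a and Tnfrsf1b were also higher, while Tnf itself averaged 0.88 and 0.85 TPM. In a bulk sample, more cells of a type and more RNA per cell cannot be told apart.

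The bases upstream of 4 of these receptor genes are shown because their levels were higher together in SNI. They are the 250 bases before the gene start from RefSeq (GRCr8), 5′ to 3′ on the gene's strand: Tnfrsf12a at chr10:13213649-13213898 (minus strand), Tnfrsf21 at chr9:25451324-25451573 (minus strand), Tnfrsf1a at chr4:159836869-159837118 (plus strand) and Tnfrsf1b at chr5:162387412-162387661 (minus strand). Capitals mark matches to any motif searched for on both strands: AP-1 (TGANTCA), CRE (TGACGTCA), the kappa B consensus, STAT (TTCNNNGAA), GC box (GGGCGG) and the core promoter motif of TATA boxes, spelled TATAAA.
Tnfrsf12a: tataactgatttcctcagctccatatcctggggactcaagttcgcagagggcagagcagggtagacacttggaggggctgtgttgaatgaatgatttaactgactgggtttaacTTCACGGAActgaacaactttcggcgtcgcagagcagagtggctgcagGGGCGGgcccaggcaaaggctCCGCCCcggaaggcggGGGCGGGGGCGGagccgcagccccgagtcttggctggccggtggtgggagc
Tnfrsf21: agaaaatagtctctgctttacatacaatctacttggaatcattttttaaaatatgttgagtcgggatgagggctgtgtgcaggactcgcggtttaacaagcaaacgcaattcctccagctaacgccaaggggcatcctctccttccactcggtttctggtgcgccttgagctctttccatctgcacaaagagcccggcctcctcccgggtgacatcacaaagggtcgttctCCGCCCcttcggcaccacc
Tnfrsf1a: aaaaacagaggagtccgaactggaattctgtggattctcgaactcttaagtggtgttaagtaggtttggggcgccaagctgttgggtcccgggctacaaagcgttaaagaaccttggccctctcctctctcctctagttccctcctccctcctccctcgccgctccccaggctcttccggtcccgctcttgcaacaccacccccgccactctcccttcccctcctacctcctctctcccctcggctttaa
Tnfrsf1b: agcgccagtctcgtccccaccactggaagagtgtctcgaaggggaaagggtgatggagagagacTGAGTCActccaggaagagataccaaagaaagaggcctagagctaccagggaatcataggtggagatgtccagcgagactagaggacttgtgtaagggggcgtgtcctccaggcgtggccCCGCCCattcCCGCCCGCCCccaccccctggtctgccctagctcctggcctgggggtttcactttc

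Matches in these windows are descriptions of letters and not of binding. Tnfrsf12a held 4 GC boxes and 1 STAT match, TTCACGGAA. Tnfrsf1b held an AP-1 match, TGAGTCA, 186 to 180 bases before the start, and 3 GC boxes, 2 of which overlap. Tnfrsf21 held 1 GC box, and Tnfrsf1a none of the motifs. A GC box was in 30.5% of 33469 promoter windows of this length, an AP-1 match in 6.34%, a STAT match in 7.67% and a kappa B match in 6.33%. These shares are per window, with no choice by gene type. Members, all protein coding, were counted once per gene by a match in any window, so the shares are not like for like. Windows were found for 38 of the 48 members. A kappa B match was in 8 of these (Fas, Lta, Ltb, Tnfrsf8, Tnfsf14, Traf3, Traf3ip2 and Traf7), an AP-1 match in 5, a STAT match in 3, a CRE in 0 (1.59% of all windows), a TATA match in 7 (12.9%) and a GC box in 20.

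Tnfrsf14 (NCBI Gene ID 366518) stood at 0.56, 0.68 and 0.62 TPM in sham replicates 1 to 3 and at 3.56, 3.95 and 2.71 TPM in SNI replicates 1 to 3. The groups did not overlap, and the SNI libraries varied more. The means were 0.62 ± 0.06 TPM in sham and 3.41 ± 0.634 TPM in SNI (SD, n = 3 each). On the log2(TPM + 1) scale the difference, which is damped at such low levels, was 1.43 with SE 0.14 (95% interval 1.13 to 1.74, limma adjusted p = 1.7e-05). Behind it were 48 reads over the 3 sham libraries and 258 over the 3 SNI libraries, as 3 times the average. Tnfrsf14 reached the limma filter, a mean of 1 TPM over the 6 libraries, through SNI alone, and was also called with no filter.

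Tnfrsf12a (Gene ID 302965) stood at 9.63, 11.1 and 13.5 TPM in sham and at 24.6, 23.3 and 24.7 TPM in SNI. Here the sham libraries were the more variable, and the highest of them lay 9.79 TPM under the lowest SNI library. The means were 11.4 ± 1.96 and 24.2 ± 0.752 TPM (SD, n = 3 each), a log2 difference of 1.03 with SE 0.10 (95% interval 0.80 to 1.27, limma adjusted p = 2.5e-05).

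Tnfrsf21 (Gene ID 316256) stood at 161, 144 and 164 TPM in sham and at 235, 246 and 251 TPM in SNI. It was the most abundant of the 48 genes in both groups, and its groups were 71.4 TPM apart. The means were 157 ± 10.5 and 244 ± 8.03 TPM (SD, n = 3 each), a log2 difference of 0.64 with SE 0.06 (95% interval 0.51 to 0.77, limma adjusted p = 1.2e-05).

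These 3 calls are to be read against a table in which 61.2% of 1596 genes tested were called by limma, 32.0% as higher and 29.2% as lower in SNI, and in which 66.7% of genes had groups that did not overlap. After quantile normalization 402 genes were higher and 608 lower, against 510 and 466 as deposited, and the 3 receptors stayed higher. The sources used here do not say how the authors chose the genes of that table. Of its genes, 951 of 1628 had averages within 1.25-fold of each other. Tnfrsf12a and Tnfrsf14 were also in the authors' list of higher genes, as 2 of 48 members (4.17%) beside 3.63% of all genes, a share near the background. The authors' deposited table pairs both with the KEGG term for cytokine-cytokine receptor interaction. None of the members was in their list of lower genes, which held 0.695% of all genes.

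**Figure D1:**
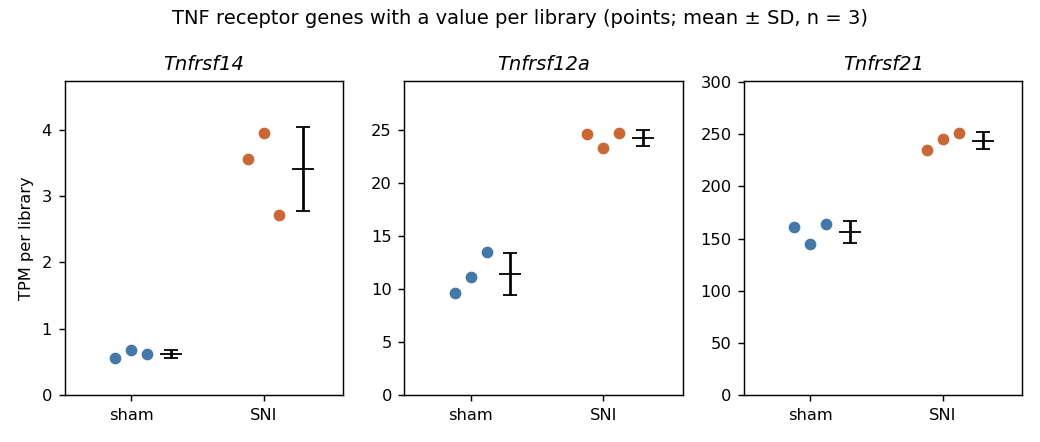
TPM of Tnfrsf14, Tnfrsf12a and Tnfrsf21 in each library, with sham in blue and SNI in orange, and the mean ± SD of 3 libraries in black beside the points. Each vertical axis starts at 0, and in each panel the 3 SNI libraries lie above the 3 sham libraries.

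Group averages placed the receptors over a wide range of levels. Tnfrsf21, Tnfrsf1a, Ltbr and Tnfrsf12a together made up 91.6% of the summed TPM of the 23 receptors in sham and 92.5% in SNI. Tnfrsf21 alone took 53.3% and 54.5%. All receptors together summed to 294 TPM in sham and to 448 TPM in SNI. Of the 48 members, 16 were under 1 TPM in both groups, and 11 reached 10 TPM in at least one group.

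**Figure D2:**
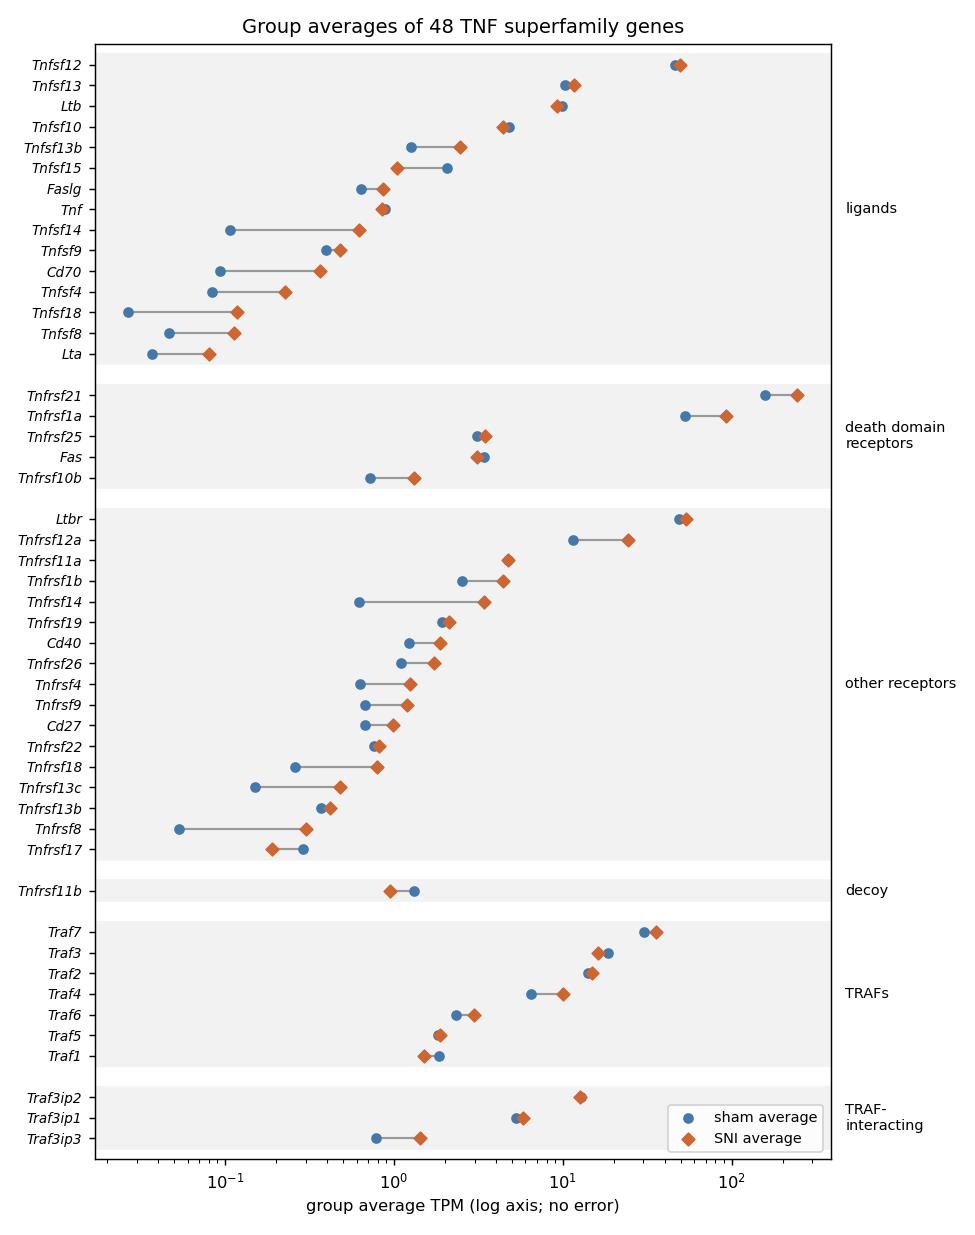
Average TPM of each of the 48 genes in sham (blue circles) and SNI (orange diamonds) on a log axis, grouped by role and joined by a line. The averages carry no error. Tnfrsf21 lies highest, at 157 and 244 TPM, and most ligands lie under 1 TPM.

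A ratio of averages was counted as past the fold when (TPM + 1) differed at least 1.5-fold and the larger average read count was at least 10. Of 36 members with that many reads, 6 (16.7%) were past it as higher in SNI, beside 6.8% of all such genes: Tnfrsf12a, Tnfrsf14, Tnfrsf21, Tnfrsf1a, Tnfrsf1b and Tnfsf13b. As lower, 0 members were past it, beside 2.53% of all such genes. With a pseudocount of 0.1 the counts were 12 higher and 1 lower, beside 9.78% and 4.24% of all such genes. By read counts plus 1 they were 13 and 1, beside 10.4% and 4.36%, and at a fold of 2 they were 2 and 0, beside 2.69% and 0.479%. An SNI average above that of sham, by any amount, was found for 38 of the 48 members (79.2%) beside 53.1% of all genes, and for 27 of the 36 (75.0%) beside 53.3%. The median log2 ratio was 0.15 over the 48 members and 0.017 over all genes. By role, the higher average was in SNI for 16 of 18 receptors, 4 of 8 ligands and 5 of 7 TRAF genes with at least 10 reads. The difference between these roles was not tested. The read filter takes the larger average, so some members passed it through 1 group alone. Tnfrsf4 (5.67 and 11.3 average reads in sham and SNI) and Tnfrsf9 (9.67 and 16.0) passed through SNI. Tnfsf15 (13.7 and 7.0) passed through sham.

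Of the ligands, Tnfsf12 (TWEAK), a weak inducer of cell death and a growth signal for several tissues, was the most abundant, averaging 46.1 (sham) and 49.6 TPM (SNI). Tnfsf13 (APRIL), a survival factor of plasma cells, followed at 10.2 and 11.6 TPM. Ltb, the membrane partner of lymphotoxin alpha, was at 9.86 and 9.20 TPM, and Tnfsf10 (TRAIL), which triggers death receptors, at 4.80 and 4.41 TPM. These 4 ligands differed little between the groups. In RefSeq, Tnfsf12 and Tnfsf13 overlap one further protein-coding gene, Eif4a1l, and whether the authors counted by strand is not known, so reads may be shared.

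Tnf, the cytokine that names the family, rested on 40 reads over the sham libraries and 39 over the SNI libraries. Its read ratio was 0.975, with a 95% counting interval of 0.611 to 1.55, so a change within those bounds was not detectable at this depth. Such intervals (exact binomial, on 3 times the average read count, rounded) cover counting error only and no spread between libraries. Faslg, which binds Fas on target cells, was at 0.633 and 0.86 TPM, with a counting interval of the read ratio of 0.841 to 1.84.

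Tnfsf13b (BAFF), a survival factor of B cells made largely by myeloid cells, was the only ligand past the fold, with averages of 1.25 and 2.44 TPM. It rested on 71 and 140 reads, a ratio of 1.97 (counting interval 1.47 to 2.66). Summed macrophage markers were higher too (107 and 239 TPM) and B cell markers were not (3.71 and 2.89 TPM). Of the 5 B cell markers, 4 averaged fewer than 10 reads in both groups, and 2 had higher averages in SNI. The part of these marker levels was not tested. Tnfsf15, a costimulator of T cells also made by vessel cells, had the lowest ratio of the family, at 2.05 and 1.05 TPM. It rested on 41 and 21 reads (counting interval 0.288 to 0.887). Its log2 ratio of −0.58 lay just short of the fold on the TPM + 1 scale and passed it with a pseudocount of 0.1.

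The other 7 ligands, Lta, Cd70, Tnfsf4, Tnfsf8, Tnfsf9, Tnfsf14 and Tnfsf18, averaged fewer than 10 reads in both groups. Most are known from activated lymphocytes or from cells that present antigen to them. Each had a higher average in SNI, as did 53.1% of all genes at any number of reads. Only for Tnfsf14 did the counting interval of the read ratio leave out 1. Tnfsf14 (LIGHT), the ligand of Tnfrsf14 and Ltbr, rested on 2 reads in sham and 15 in SNI, with a counting interval of the ratio of 1.74 to 67.6. Cd70 and Tnfsf18 each rested on 2 and 8 reads, with intervals of 0.798 to 38.7 that include 1. Lta rested on 2 and 3 reads, too few for a ratio.

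Among the death domain receptors, Tnfrsf1a, the main TNF receptor of most tissues, had a sham average of 52.6 TPM and an SNI average of 93.1 TPM. This is a ratio of 1.77 on 3100 and 5490 reads (counting interval 1.69 to 1.85). Its log2 ratio of 0.81 was the third in size among the members, after Tnfrsf14 and Tnfrsf12a. It was not in the authors' list of higher genes, where the lowest ratio of averages was 1.80. Tnfrsf10b, the receptor of Tnfsf10, was at 0.717 and 1.31 TPM on 37 and 68 reads (counting interval 1.21 to 2.82). In RefSeq it overlaps the protein-coding gene Rhobtb2, so its reads are uncertain. Fas, the classic death receptor, was at 3.43 and 3.10 TPM, and Tnfrsf25, the receptor of Tnfsf15, at 3.11 and 3.44 TPM. Both counting intervals include 1 (0.755 to 1.10 and 0.823 to 1.24).

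Of the member receptors without a death domain, Ltbr, the lymphotoxin beta receptor of stromal and myeloid cells, was the most abundant, at 48.6 and 53.3 TPM. Tnfrsf1b, the TNF receptor of immune and vessel cells, was at 2.54 and 4.43 TPM on 201 and 352 reads (counting interval 1.47 to 2.09). In RefSeq it overlaps a protein-coding locus, LOC103692519, so its reads are uncertain. Tnfrsf11a (RANK), known from osteoclasts, was at 4.73 and 4.75 TPM, and Tnfrsf19 (TROY), a receptor of neural and epithelial progenitors, at 1.93 and 2.11 TPM.

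Costimulatory receptors of lymphocytes and antigen-presenting cells were low. Cd40, which activates B cells and macrophages, was at 1.23 and 1.88 TPM (counting interval 1.07 to 2.20). Tnfrsf4 (OX40) was at 0.627 and 1.25 TPM, Tnfrsf9 at 0.673 and 1.19 TPM and Cd27 at 0.67 and 0.987 TPM. All 4 averages were higher in SNI, and the counting interval of Cd27 (0.858 to 1.93) includes 1. The T cell genes with a value per library, Cd3e and Cd8a, moved the same way, with a summed level of 1.97 to 2.58 TPM in sham and 4.59 to 5.57 TPM in SNI. Their part was not tested.

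Receptors with fewer than 10 average reads were Tnfrsf8 (CD30, 5 and 28 reads), Tnfrsf18 (GITR, 9 and 25 reads), Tnfrsf13c (the BAFF receptor, 7 and 23 reads), Tnfrsf17 (BCMA, 7 and 4 reads) and Tnfrsf22 (15 and 16 reads). The counting interval lay above 1 for Tnfrsf8 (2.13 to 18.6), Tnfrsf18 (1.25 to 6.76) and Tnfrsf13c (1.36 to 9.07). Tnfrsf8 overlaps the same RefSeq locus as Tnfrsf1b, LOC103692519, so its reads are uncertain. Tnfrsf13b (TACI), another receptor of Tnfsf13b on B cells, was at 0.37 and 0.417 TPM on 31 and 34 reads. Tnfrsf26 was at 1.09 and 1.72 TPM. Tnfrsf22 and Tnfrsf26 are related rodent receptors and could share reads. Tnfrsf11b (osteoprotegerin), a secreted decoy that binds Tnfsf11 and Tnfsf10, was at 1.32 and 0.94 TPM on 100 and 72 reads (counting interval 0.524 to 0.985).

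**Figure D3:**
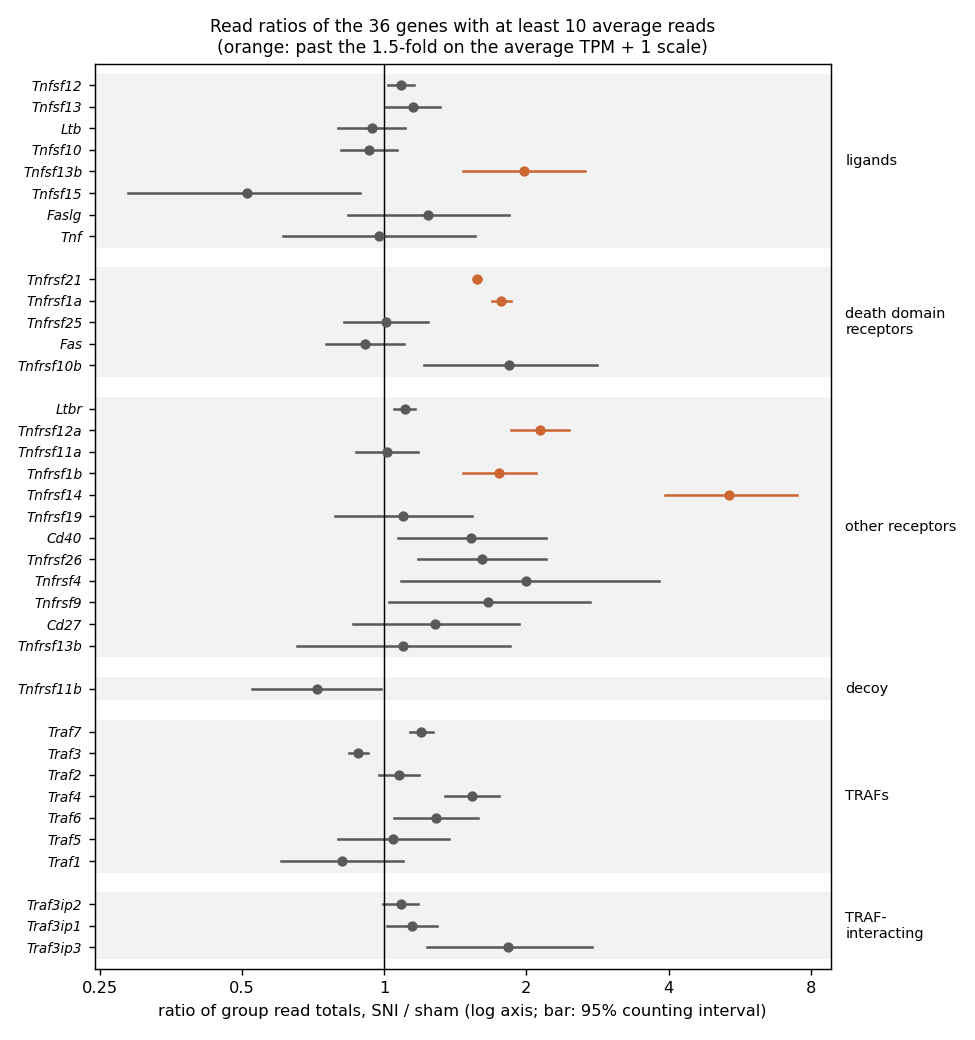
Ratio of group read totals, SNI over sham, for the 36 genes with at least 10 average reads on a log axis, with 95% counting intervals as bars and orange for the 6 genes past the fold on the TPM + 1 scale. Tnfrsf14 lies farthest right (interval 3.94 to 7.48) and Tnfsf15 farthest left (0.288 to 0.887).

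Set side by side with their receptors in 21 textbook pairs, the ligand was the rarer transcript in 13 pairs in both groups. Tnfrsf1a averaged 59.8 times the TPM of Tnf in sham and 109 times in SNI. Ltbr averaged 4.94 and 5.79 times the TPM of Ltb. The order was the other way for Tnfsf12, where Tnfrsf12a stood at 0.248 of its ligand in sham and at 0.488 in SNI. It was the other way too for Tnfsf13, with Tnfrsf13b at 0.0362 and 0.0359 of its level, and for Tnfsf10, with Tnfrsf10b at 0.149 and 0.296. Tnfrsf14 and Tnfsf14 were at a ratio of 5.81 in sham and 5.52 in SNI, the ligand on few reads. These are ratios of averages with no error.

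The TRAF adaptors carry the signal from receptors to kinases. Traf7, a more distant member of the family, was the most abundant at 30.2 and 35.6 TPM, followed by Traf3, a brake on noncanonical NF-kappa B signalling, at 18.4 and 16.1 TPM, and Traf2, the adaptor of both TNF receptors, at 14.1 and 14.9 TPM. Traf4, known from epithelia and development, had the largest ratio among them, at 6.51 and 10.04 TPM (counting interval of the read ratio 1.34 to 1.75), and its log2 ratio of 0.55 was under the fold. Traf6, the adaptor of RANK, CD40 and Toll-like receptors, was at 2.34 and 2.97 TPM and Traf5 at 1.82 and 1.88 TPM. Traf1, itself a target of NF-kappa B, was at 1.84 and 1.51 TPM (counting interval 0.604 to 1.10). RefSeq lists pseudogenes of Traf4, Traf7 and Traf3ip2, so their reads may be shared with copies.

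Of the TRAF-interacting proteins, Traf3ip2, the adaptor of interleukin 17 receptors, was at 12.8 and 12.6 TPM. Its average reads went the other way (342 and 371), so its direction depends on the unit. Traf3ip1, a protein of cilia, was at 5.31 and 5.80 TPM. Traf3ip3, known from lymphocytes, was at 0.783 and 1.43 TPM (counting interval 1.23 to 2.75). Since it overlaps a protein-coding gene in RefSeq, C13h1orf74, its reads are uncertain.

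Other genes of the pathway were counted from a list of 48: 5 receptors and ligands of the superfamily under other symbols and 43 signalling genes. Only Xiap, an inhibitor of caspases, and Map3k5, a kinase upstream of JNK, had values per library. With limma, 0 of these 2 passed at an adjusted p under 0.05, and 0 of 2 at an unadjusted p under 0.05. Xiap stood at 16.6, 13.6 and 13.9 TPM in sham and at 15.6, 16.8 and 16.9 TPM in SNI, and the groups overlapped (log2 difference 0.16, SE 0.08, limma adjusted p = 0.14). Map3k5 averaged 9.61 ± 0.531 and 9.62 ± 0.737 TPM (SD, n = 3 each; limma adjusted p = 0.996, 95% interval of the log2 difference −0.18 to 0.18). Without sham replicate 1, Xiap passed the threshold at a log2 difference of 0.24 (limma adjusted p = 0.013).

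By averages, 7 of the 43 signalling genes (16.3%) were past the fold as higher and 0 as lower, beside 6.8% and 2.53% of all genes with at least 10 reads. Their median log2 ratio was 0.24, beside 0.017 for all genes. Among them were Jun, a subunit of the AP-1 transcription factor (60.1 and 203 TPM), Ripk3, the kinase of necroptosis (1.92 and 7.07 TPM), Bcl3, a nuclear partner of NF-kappa B (8.10 and 22.4 TPM), Nfkbiz (0.987 and 2.68 TPM), Birc3, a ubiquitin ligase at TNF receptors (1.01 and 2.27 TPM), and Fadd, the adaptor of death domains (2.57 and 4.50 TPM). Jun, Ripk3, Bcl3, Nfkbiz and Birc3 were in the authors' list of higher genes. The core genes were closer between groups: Nfkb1 was at 21.3 and 24.1 TPM, Rela at 37.7 and 43.7 TPM, the inhibitor Nfkbia at 29.7 and 35.3 TPM and Tnfaip3 at 3.16 and 3.75 TPM. Ripk1 was at 6.29 and 7.59 TPM and Casp8 at 2.47 and 3.77 TPM. Macrophage markers were higher beside these genes (107 and 239 TPM summed), and their part was not tested.

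Of the superfamily genes under other symbols, Ngfr, the low-affinity neurotrophin receptor of neurons and Schwann cells, had a sham average of 597 TPM and an SNI average of 519 TPM, above every gene of the 48. Relt, Eda, Edar and Eda2r had sham averages of 8.96, 5.61, 0.37 and 0.167 TPM, against 6.92, 4.70, 0.213 and 0.223 TPM after injury. Of these 5 genes 4 had a lower average in SNI, as did 8583 of all 18696 genes. Past the fold were 0, beside 6.8% (higher) and 2.53% (lower) of all genes with at least 10 reads. Eda2r averaged fewer than 10 reads in both groups (3.37 and 5.39 in sham and SNI). Edar reached 10 reads through sham alone (12.3 and 5.0). Schwann cell markers were lower beside Ngfr (10540 and 5729 TPM summed), and their part was not tested.

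**Figure D4:**
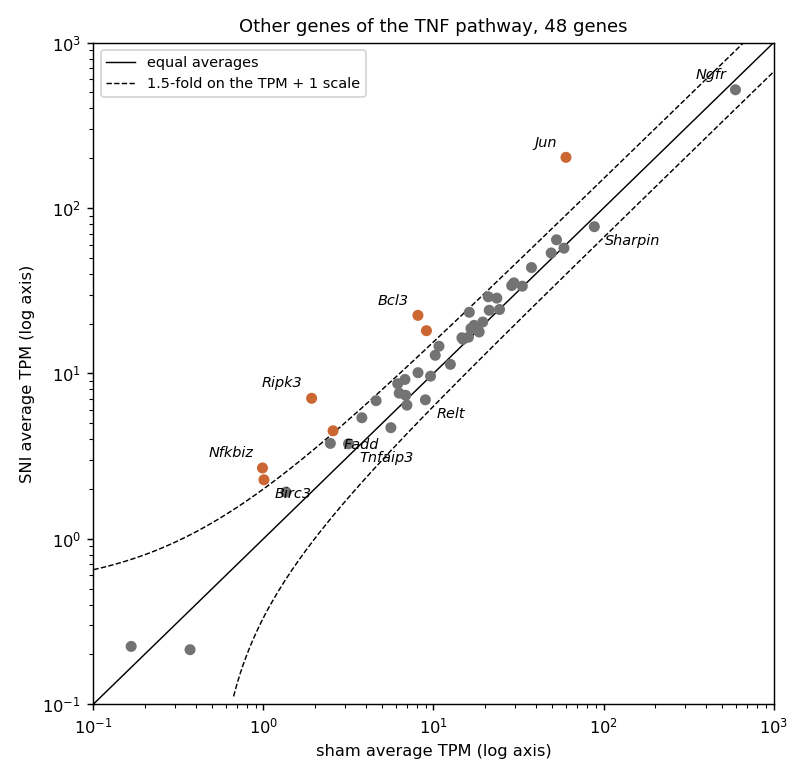
Average TPM in sham (horizontal) against SNI (vertical) for the 48 other genes of the pathway, both on log axes, with the line of equal averages (solid) and the 1.5-fold lines on the TPM + 1 scale (dashed). Orange marks the 7 genes past the fold, all above the line, with Jun highest at 60.1 and 203 TPM.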

How the data were processed

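RNA was sequenced from dorsal root ganglia in 3 SNI and 3 sham libraries. The authors' tables hold, per the file headers, TPM per library for 1637 genes and average TPM and average read counts per group for 18696 genes. The deposited average read counts were handled as means of estimated counts. Times 3 they were whole in 65.4% (sham) and 64.8% (SNI) of genes (tolerance 0.003), and no scaling is named. Their near-equal group totals leave it unknown whether they were scaled or subsampled, so numbers of reads and counting intervals may not be those of raw reads. The sources used here do not give the aligner, counter, build or strandedness. Control columns were taken as sham.

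The 1596 genes whose mean reached 1 TPM were compared on log2(TPM + 1) in R 4.3.3 by limma 3.58.1 (trended prior, no covariate), and p-values were adjusted over all of them by Benjamini-Hochberg, with 0.05 as threshold. An exact permutation test of 3 against 3 cannot go below p = 0.1 and was not used. The fit was tested on simulated data in which 200 genes were changed, evenly in both directions. It called 92 of 99 genes changed by a log2 of 0.5, 99 of 100 changed by 1.0 and 8 of 1371 unchanged. In the deposited values 61.2% of genes tested were called, so these rates need not hold there. Averages got ratios with no test, past the fold at 1.5-fold on TPM + 1 with at least 10 reads. Counting intervals are exact binomial at 95% (scipy 1.17.1, Python 3.11.15), and figures used matplotlib 3.10.9. The alternatives were other pseudocounts, filters, scalings, a replicate block and leaving out each library.

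Members and lists were chosen with earlier results of these data known. Named were the members with a value per library, in the authors' lists or past the fold, the 3 most abundant of each role, and fixed pathway genes, and the other members follow with their values. The rule of up to 4 called pathway genes gave none, so genes past the fold were named after their values were seen. A marker gene and a pathway gene are not reported here by name. Replicate numbers were not used to pair the samples in the main fit, and whether they stand for pairs is not known.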

Additional observations from a re-analysis of the deposited data

How the results depend on the processing

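Tnfrsf14, Tnfrsf12a and Tnfrsf21 kept their direction and their call under every alternative run, with log2 fold changes of 1.03 to 2.27, 0.89 to 1.15 and 0.58 to 0.67 (limma adjusted p at most 0.0005, 0.00024 and 0.00012). Tnfrsf14 did not enter the filter at a mean of 5 TPM. Quantile normalization moved the median log2 difference over all genes by −0.067 and median centring by −0.045. Of the pathway genes with values per library, 0 were called higher, with 0 to 1 when single libraries were left out. Under quantile normalization 1 was called lower, Map3k5, whose log2 difference went to −0.19. The cause was not tested.

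Of 36 members, 6 were past the fold as higher, beside 6.8% of all genes with at least 10 reads. There were 12 with a pseudocount of 0.1 (9.78% of such genes), 13 by read counts (10.4%) and 2 at a fold of 2 (2.69%). As lower there were 0 (2.53%), and 1 (Tnfsf15) with a pseudocount of 0.1 (4.24%) or by read counts (4.36%). The median log2 ratio of 0.15 became 0.36 and 0.29 in these settings, since a pseudocount of 1 TPM shrinks low genes. Under the fold at the main setting and past it by read counts were Cd40, Tnfrsf4, Tnfrsf9, Tnfrsf10b, Tnfrsf26, Traf4 and Traf3ip3.

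With the replicate block, the 3 members were called as before (3 higher, 0 lower), and the counts over all genes were 498 higher and 447 lower. The deviations of samples with the same number had correlations of −0.088, −0.059 and 0.188. Between samples with different numbers they ranged from −0.288 to 0.291. With 3 libraries in a group, such correlations cannot tell whether the samples were paired. Depth limits the 12 members under 10 average reads, which rested on 2 to 28 reads a group.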

Other observations

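In the authors' deposited table, 18 of the genes listed as higher in SNI carry the KEGG term for TNF signalling. Of those listed as lower, 0 do, but that list is much the shorter. The higher list held 3.63% of all genes with averages and the lower list 0.695%. The share of all genes with this term was not counted here, so these counts give no direction for the pathway. Only Tnfrsf12a and Tnfrsf14 of the family were in the higher list at all, and neither is among the 18. The 18 include the monocyte chemoattractants Ccl2 (group averages of 27.9 and 106 TPM in sham and SNI) and Ccl12 (2.88 and 7.63 TPM). They also include the neutrophil chemoattractants Cxcl2 (0.0667 and 1.08 TPM) and Cxcl3 (0.173 and 2.35 TPM), and the macrophage growth factor Csf1 (12.2 and 54.9 TPM). The matrix proteases Mmp3 (0.05 and 2.63 TPM) and Mmp9 (1.81 and 4.43 TPM), the cytokines Il1b (1.66 and 4.11 TPM) and Il6 (0.0367 and 5.77 TPM), and the kinase Map3k8 (0.823 and 1.72 TPM) are also among them. The averages carry no error. Cxcl3 also had a value per library and was called higher (log2 difference 1.51, limma adjusted p = 4.5e-05), as were 32.0% of genes tested. Not all of the 18 are named here, and those named were chosen after their values were seen.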
